A study of Macaca fascicularis with 3 samples.

Results

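The cells described here carry marker genes of resident macrophages and are called macrophages below on that ground alone. They were caught as whole cells from the extraocular muscle (EOM, the muscles that move the eye) of Macaca fascicularis, the cynomolgus macaque. They were chosen from the EOM whole-cell library by a rule on unique molecular identifiers (UMIs, each counting 1 captured mRNA molecule): at most 20% of a barcode's UMIs from mitochondrial genes, and at least 5 UMIs summed over C1QA, C1QB, C1QC, FOLR2, VSIG4, CD209, MRC1 and F13A1. The rule gave 181 cells of the 7316 kept at that mitochondrial limit, out of 8979 deposited barcodes. That is 2.47% of the kept cells (exact 95% binomial interval 2.13 to 2.86%). The study holds 3 libraries with 1 library in each group: EOM whole cells, EOM nuclei and nuclei of the quadriceps femoris muscle (QFM, a limb muscle). The labels give the tissue and whether cells or nuclei were taken, and no age, sex, genotype, treatment or number of animals. With 1 library in each group no difference between groups can be tested, so each interval covers the counting of molecules alone, and cells of 1 library are not replicates.

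Macrophages are tissue phagocytes that engulf dying cells and debris, recycle iron and lipid, present antigen on MHC class II and secrete chemokines and growth factors. Those that line small vessels in many tissues carry LYVE1, a receptor for hyaluronan, together with scavenger receptors, and commonly carry little MHC class II. A further resident population lacks LYVE1 and carries more MHC class II. Monocytes are their circulating relatives and can enter tissue and turn into macrophages.

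The 8 genes of the rule describe the choice and test nothing. The 3 chains of C1q, the recognition molecule of the classical complement pathway, had at least 1 UMI in 168 (C1QA), 154 (C1QB) and 153 (C1QC) of the 181 cells. The vitamin receptor gene FOLR2 was found in 101 cells, the complement receptor gene VSIG4 in 117, the mannose receptor gene MRC1 in 105, the clotting factor gene F13A1 in 108 and the lectin gene CD209 in 55. In the 7135 other kept cells each of these genes was found in at most 1.72% of cells. The summed marker count ran from 5 to 119 with a median of 16, and 39 of the 181 cells held all 8 genes. Just outside the rule lay 12 cells with a sum of 4, and just inside it 16 cells with a sum of 5. CSF1R, the receptor for the growth factor that macrophages need to survive, was no part of the rule. It stood at 405 CPM (counts per 1000000 UMIs of the group) in the 45 cells with a sum of 3 or 4, at 717 CPM in the 29 cells with a sum of 5 or 6, and at 1918 CPM in the 152 cells with 7 or more. LYZ, which monocytes make in quantity, ran the other way, at 4507, 2867 and 1680.1 CPM over the same cells, and 12 of the 45 cells just outside met the monocyte rule (3 or more UMIs over FCN1, APOBEC3A, EREG and SERPINB2).

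The macrophages held 394926 UMIs in all, with a median of 1987 UMIs and 922 genes per cell. The other kept cells had a median of 1147 UMIs. Markers of other cell types were present. Summed over each list, fibroblast markers stood at 522 CPM, endothelial markers at 630.5 CPM and mural markers at 1431 CPM in the macrophages, against 37978 CPM in fibroblasts, 8191 CPM in endothelium and 33884 CPM in mural cells. Dendritic cell markers stood at 357 CPM in the macrophages (159 CPM in those with LYVE1 and 575 CPM in those without) and 182 CPM in all other kept cells, and CLEC9A, XCR1, LAMP3, CCR7 and CD207, 5 of the 12, were at 0 in the macrophages. Of the 6 measured against other cells 4 were at least 2-fold higher (CD1C, FCER1A, BATF3 and IDO1) and 1 lower, and their part in the results was not tested. In 65 of the 181 cells the fibroblast, endothelial and mural lists and that of T and NK cells together gave 3 or more UMIs. One macrophage barcode of 6854 UMIs carried plasma cell transcripts: it held all 162 JCHAIN UMIs of the group and all 2136 UMIs of an unnamed row that RefSeq lists as an immunoglobulin constant region, 33.5% of its UMIs together. A second barcode, of 7325 UMIs, held 402 UMIs of the smooth muscle genes ACTA2, MYL9 and TAGLN. Both lacked LYVE1. All 5 satellite cell markers were at 0, as were PROX1, PDPN, FLT4 and TFF3 of the lymphatic endothelium, which also carries LYVE1. Of the 9 mural markers PDGFRB and KCNJ8 were at 0, and of 13 T and NK markers 6 were, CD3E among them. Scrublet called 6 of the 181 cells doublets, 3.31%, against 2.65% of all kept cells. Barcodes had 27 bases in the EOM cell library and 16 in the nuclei, so shared barcodes could not be sought between cells and nuclei. The EOM and QFM nuclei libraries shared 51 barcode sequences.

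Set against all other kept cells, the macrophages were marked by scavenger and endocytic receptors, lysosomal proteases, Fc receptors, complement receptors and a few chemokines. Since the macrophages were chosen on genes of these same cells, this is a description of the group and no test. Of the 11803 genes with at least 50 UMIs over both sums, 9.07% stood at least 2-fold higher and 27.3% at least 2-fold lower in the macrophages. Scaled to the median ratio of all genes, whose log2 ratio was -0.32, 1622 genes were higher and 2375 lower, against 1070 higher and 3219 lower as given. Of 17 measured scavenger and endocytic receptor genes 15 were higher and 0 lower, with a median log2 ratio of 3.75. CD163, the receptor for haemoglobin bound to haptoglobin, stood at 537 CPM in the macrophages and 31.7 CPM in the other cells, and CD163L1, a relative of it, at 122 CPM in the macrophages and 0.206 CPM in the others. STAB1, a scavenger receptor for modified proteins, stood at 379.8 CPM in the macrophages and 8.66 CPM in the others.

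Of 24 lysosomal genes 18 were higher and 0 lower. LGMN, a lysosomal protease, stood at 1836 CPM in the macrophages against 64.7 CPM in the other cells, and CTSB, a cathepsin, at 2466 against 303 CPM. Of 10 Fc receptor genes and adaptors 9 were higher, among them the shared signalling chain FCER1G at 3568 CPM in the macrophages and 464 CPM in the others. The survival receptor CSF1R stood at 1714 CPM in the macrophages and 43.5 CPM in the others, a log2 ratio of 5.30 (5.12 to 5.48). CD14, part of the receptor for bacterial lipopolysaccharide, stood at 2327 CPM in the macrophages and 103 CPM in the others. The iron exporter SLC40A1 stood at 808 CPM in the macrophages and 43.5 CPM in the others. APOE, a lipid carrier, stood at 3978 CPM in the macrophages and 179.9 CPM in the others.

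CCL13, a chemokine that attracts monocytes and other leukocytes, had the largest ratio among the genes named by rule: 729 UMIs in 67 of the 181 macrophages against 39 UMIs in 34 of the 7135 other cells, 1846 against 4.02 CPM. The rest of the 20 named genes were LYVE1, JCHAIN, ACP5 (a lysosomal phosphatase), GPR34 (a lysophospholipid receptor), the gene of carboxypeptidase M, RETN, CD4, STAB1, APOC1, CSF1R, LGMN, CD14, APOE, IQGAP2, SLC40A1, CD163, MS4A7, CD68 and CCL2. Their log2 ratios ran from 3.95 for CCL2 to 8.55 for LYVE1 and 8.84 for CCL13, and JCHAIN came from 1 barcode. Interferon-stimulated genes lay near the shares over all genes, 9.07% higher and 27.3% lower: of 20 measured, 1 was higher and 6 lower. Their median log2 ratio was -0.14, against -0.32 over all genes. Of 18 cell cycle genes 7 were measured: TYMS and MCM2 were higher, with 8 and 5 UMIs in the macrophages, and STMN1 was lower. MKI67 had 1 UMI and TOP2A 2 UMIs in the 181 cells.

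**Figure D1:**
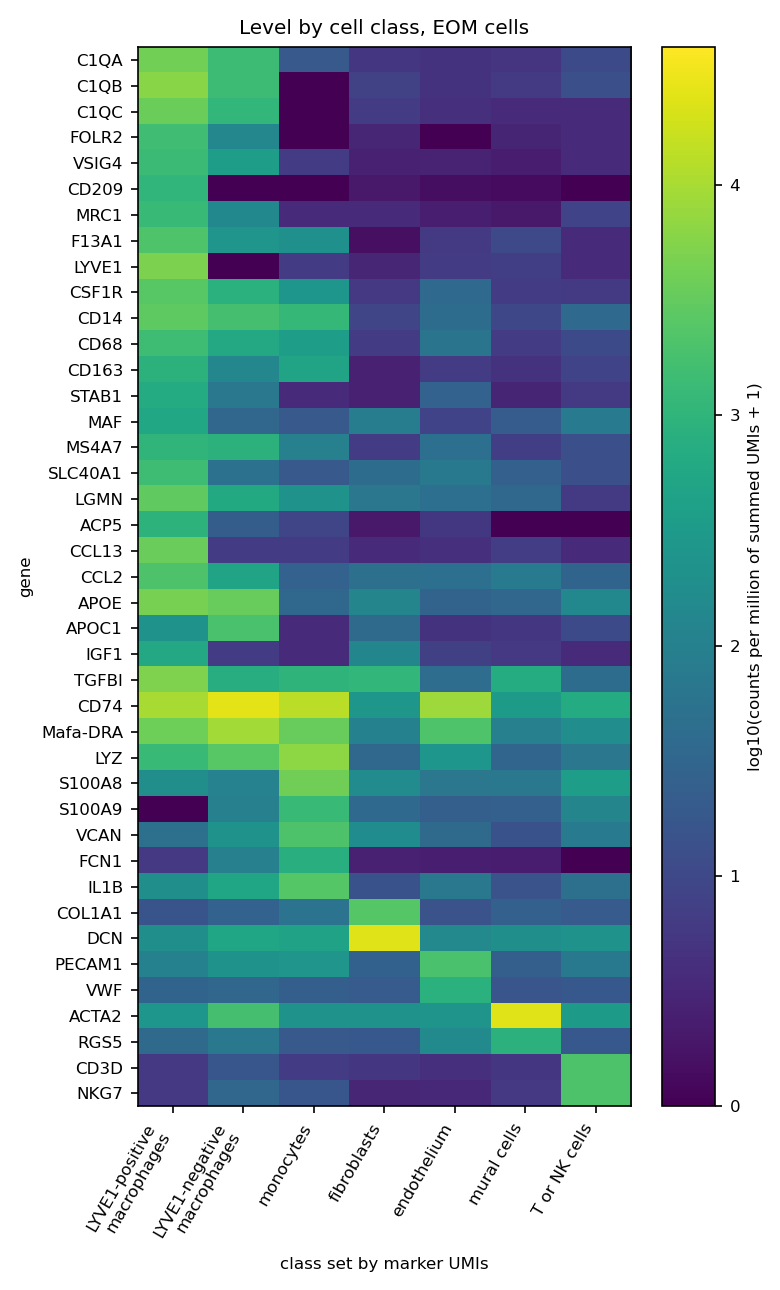
Level of 41 genes (rows) in 7 classes of EOM cells (columns); colour gives log10 of the CPM of summed UMIs plus 1. Classes other than macrophages were set by the summed UMIs of their markers (at least 5 for fibroblasts and mural cells, 3 for endothelium and monocytes, 2 for T or NK cells). The genes of the rule, LYVE1 and CCL13 are bright in the leftmost column, LYVE1-positive macrophages, while S100A8, S100A9 and VCAN are bright in monocytes.

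The comparison with monocytes set the macrophages beside cells with monocyte markers in the same library. Both sides were chosen on marker genes of these same cells. Genes that go with those markers can differ through the choice, so this too is a description and no test. Monocytes were the cells with at least 3 UMIs over FCN1, APOBEC3A, EREG and SERPINB2; 138 cells met that rule, and the 6 that met both rules entered neither side, leaving 175 macrophages and 132 monocytes. The median depth was 1954 UMIs in these macrophages and 2825.5 UMIs in the monocytes. Of 2099 genes measured, 12% were at least 2-fold higher and 12.9% at least 2-fold lower in the macrophages, with a median log2 ratio of -0.11 over all of them.

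The macrophages stood above the monocytes in scavenger receptors, lipid carriers and lysosomal proteases, and within 2-fold of them in MHC class II. Of 13 scavenger and endocytic receptor genes 8 were higher and 0 lower, of 20 lysosomal genes 9 higher and 0 lower, and of 12 lipid genes 8 higher and 1 lower. APOE had 1570 UMIs in the macrophages and 13 in the monocytes, 4206 against 34.7 CPM, a log2 ratio of 6.92 (6.15 to 7.84). APOC1, a second lipid carrier, had 406 UMIs in the macrophages and 1 in the monocytes, a log2 ratio of 8.67 (6.19 to 13.98). The endocytic adaptor DAB2 stood at 978 CPM in the macrophages and 10.7 CPM in the monocytes, and the scavenger receptor COLEC12 at 450.02 and 5.33 CPM. LTC4S, the enzyme that makes leukotriene C4, stood at 552 CPM in the macrophages and 2.67 CPM in the monocytes. None of 6 measured genes of MHC class II presentation passed 2-fold in either direction: the invariant chain CD74 stood at 17578 CPM in the macrophages and 13468 CPM in the monocytes.

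Signals and receptors divided as well. CSF1R stood at 1795 CPM in the macrophages and 264 CPM in the monocytes, P2RY12, a nucleotide receptor, at 131 and 2.67 CPM, and the transcription factor MAF at 321 and 18.7 CPM. IGF1, a growth factor for muscle, had 127 UMIs in 54 macrophages and 1 in the monocytes, 340.2 against 2.67 CPM (95% counting interval of the log2 ratio 4.49 to 12.31). CD163 did not separate the groups: 565 CPM in the macrophages and 479.8 CPM in the monocytes, a log2 ratio of 0.24 (-0.06 to 0.53). Of 10 chemokine genes 5 were higher and 2 lower. CCL2, which draws in monocytes, stood at 1412 CPM in the macrophages and 26.7 CPM in the monocytes. CXCL8, which draws in neutrophils, stood at 1580.4 CPM in the macrophages and 3023 CPM in the monocytes, a log2 ratio of -0.94 (-1.08 to -0.79). The median log2 ratio of the chemokine list, 1.87, turned negative with at least 200 UMIs required (-0.94), with thinned cells (-1.07) and at a mitochondrial limit of 10% (-0.22). The further named genes on the higher side were LYVE1, CCL13, STAB1, GPR34, ACP5, TMEM176B, EMP1 and JCHAIN, the last from 1 barcode, with log2 ratios from 5.57 for EMP1 to 9.02 for LYVE1.

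The macrophages stood below the monocytes in calprotectin and in genes of acute inflammation. Of 14 blood monocyte genes 12 were lower and 1, CD14, higher. S100A9 and S100A8, the chains of calprotectin, had 2 and 43 UMIs in the macrophages against 465 and 1529 UMIs in the monocytes. VCAN, a matrix proteoglycan made by monocytes, stood at 58.9 CPM in the macrophages and 2106 CPM in the monocytes, and THBS1, a matrix glycoprotein, at 21.4 and 1098 CPM. Of 14 inflammatory genes 10 were lower: PTGS2, the inducible cyclooxygenase, stood at 83.04 CPM in the macrophages and 1253 CPM in the monocytes, and the cytokine IL1B at 271 and 2439 CPM. G0S2, an inhibitor of lipolysis, had 210 UMIs in 41 of 175 macrophages and 4403 UMIs in 129 of 132 monocytes. The other named genes on the lower side were CXCL3, which the table holds as a pair of rows, APOBEC3B, C7H15orf48, CSF3R, CSTA, PLBD1, OSM and FCAR, with log2 ratios from -5.80 to -3.91. APOBEC3B is a near relative of the rule gene APOBEC3A, so reads shared between them could move its value.

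**Figure D2:**
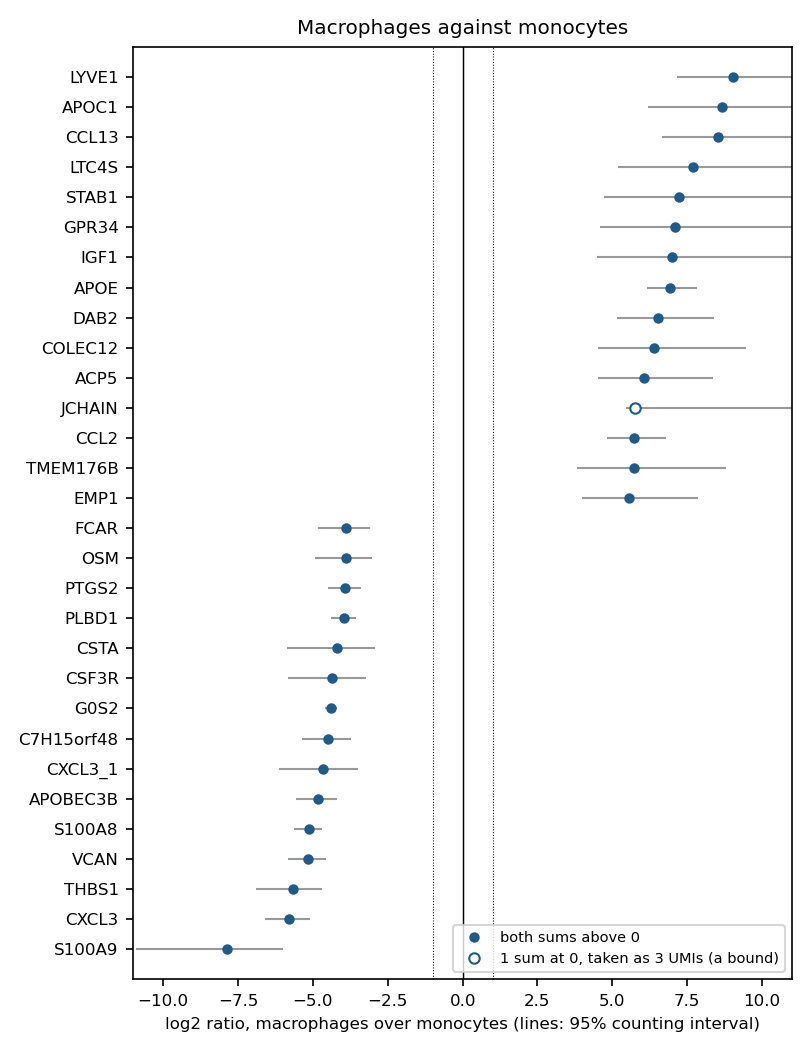
Log2 ratio of the level in 175 macrophages over that in 132 monocytes (horizontal axis) for the 30 genes named by rule, with 95% counting intervals as lines; dotted lines mark 2-fold and the open point is a bound against a sum of 0. APOE stands at 6.92 and S100A9 at -7.85; JCHAIN comes from a single barcode.

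LYVE1 had 1034 UMIs in the macrophages. It was found in 106 cells and in none of the UMIs of 75; 12 of the 106 held 1 UMI, 52 held 2 to 9 and 42 held 10 or more. The LYVE1-positive share was 58.6% (51.02 to 65.8%), at a median depth of 1825 UMIs in LYVE1-positive and 2233 UMIs in LYVE1-negative cells, so the cells without LYVE1 were the deeper ones. With every cell thinned to 500 UMIs the share was 45.9%. At full depth 2 of 132 monocytes, 1.52%, held a LYVE1 UMI. Thinned in the same way, 0 of 132 monocytes did (upper bound 2.76%), as against 0.197% of fibroblasts, 0.274% of endothelium and 0.321% of mural cells. The level of LYVE1 was 2618 CPM in the macrophages and 7.01 CPM in the other kept cells.

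**Figure D3:**
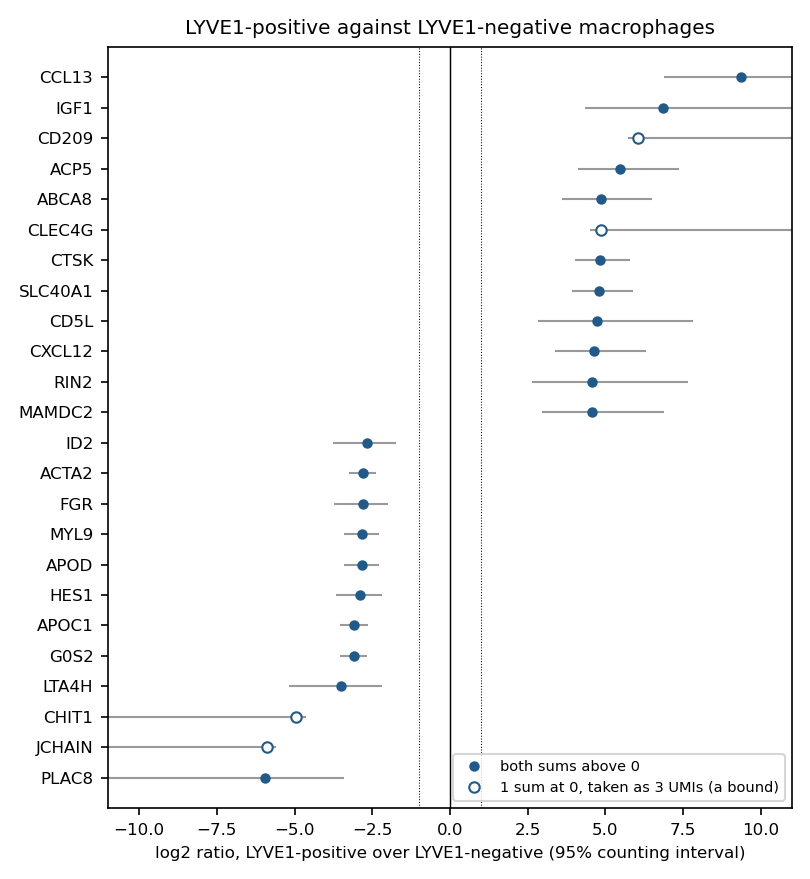
Log2 ratio of the level in 106 LYVE1-positive over 75 LYVE1-negative macrophages (horizontal axis) for the 24 genes named by rule, with 95% counting intervals as lines; open points are bounds against a sum of 0. CCL13 stands at 9.37 and PLAC8 at -5.95; JCHAIN comes from 1 barcode, CHIT1 from 3, and most UMIs of ACTA2, MYL9 and APOD from 1 barcode each.

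LYVE1-positive macrophages carried CCL13, IGF1, CD209 and CLEC4G, of which LYVE1-negative ones held at most 1 UMI each, and more of the scavenger receptors. LYVE1-negative macrophages held more CD74 and Mafa-DRA, more monocyte genes and fewer C1q transcripts. Of 1120 genes measured, 15.1% stood at least 2-fold higher and 11.6% at least 2-fold lower in LYVE1-positive cells. Without the barcode with plasma cell transcripts 168 genes were higher and 128 lower, against 169 and 130 with it. LYVE1-negative cells also passed the selection rule by less: the marker sum had a median of 32.5 in LYVE1-positive and 9 in LYVE1-negative cells. The rule genes, CD209 and C1q among them, stayed in these counts, and their levels are tied to the selection. With at least 10 marker UMIs required, 59 genes were lower in LYVE1-positive cells, while 140 were higher. Without the cells that held 3 or more UMIs of other cell type markers 95 genes were higher and 68 lower.

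Of 9 scavenger and endocytic receptor genes 8 were higher and 0 lower in LYVE1-positive cells, with a median log2 ratio of 2.98 against -0.04 over all genes. COLEC12 stood at 777 CPM in LYVE1-positive and 37.3 CPM in LYVE1-negative cells, STAB1 at 661 against 69.2 CPM and CD163 at 903 against 133 CPM. CD36, a receptor for oxidised lipid, stood at 758 CPM in LYVE1-positive and 95.8 CPM in LYVE1-negative cells. The rule gene MRC1 stood at 1255 CPM in LYVE1-positive and 138 CPM in LYVE1-negative cells, and FOLR2 at 1569 and 133 CPM. CD209, a rule gene for a lectin that binds mannose on microbes, had 217 UMIs in 55 of 106 LYVE1-positive cells. It had 0 UMIs in 75 LYVE1-negative cells, so CD209 was at least 65.6-fold higher in LYVE1-positive cells with a sum of 0 taken as 3 UMIs. CLEC4G, another C-type lectin, had 95 UMIs in LYVE1-positive and 0 in LYVE1-negative cells, at least 28.7-fold higher. TIMD4, a receptor for phosphatidylserine on dying cells, had 41 UMIs in 23 LYVE1-positive cells and 0 UMIs in LYVE1-negative cells. CD163L1 had 48 and SIGLEC1, a sialic acid receptor, 36 UMIs in LYVE1-positive cells, against 0 and 1 UMI in LYVE1-negative cells.

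CCL13 was close to exclusive in the counts: 728 UMIs in 66 of 106 LYVE1-positive cells and 1 UMI in 75 LYVE1-negative cells, a log2 ratio of 9.37 (6.88 to 14.67). Per cell it ran from 0 to 319.6 UMIs per 10000 with a median of 11.3 in LYVE1-positive cells, 40 of which held none. CCL2 stood at 2100.1 CPM in LYVE1-positive and 489.9 CPM in LYVE1-negative cells, CCL8, which attracts several leukocytes, at 348 and 26.6 CPM, and CXCL12, a retention signal for leukocytes, at 666 and 26.6 CPM. The other 3 measured chemokine genes, CCL3 and CXCL8 among them, lay within 2-fold. IGF1 had 126 UMIs in 53 LYVE1-positive cells and 1 UMI in LYVE1-negative cells, a log2 ratio of 6.84 (4.33 to 12.15). Of 8 growth factor and remodelling genes 5 were higher and 2 lower. TGFBI, a matrix protein, stood at 5189.98 CPM in LYVE1-positive and 724 CPM in LYVE1-negative cells. CTSK, a protease that cuts collagen, stood at 1829.8 CPM in LYVE1-positive and 63.9 CPM in LYVE1-negative cells.

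The C1q genes were in both groups and higher in LYVE1-positive cells. Summed over the 3 chains, the level ran from 5.79 to 295.7 UMIs per 10000 with a median of 136 in LYVE1-positive cells, and from 0 to 186 with a median of 37.7 in LYVE1-negative cells; the groups overlapped. Iron genes divided within the list: the exporter SLC40A1 stood at 1492 CPM in LYVE1-positive and 53.2 CPM in LYVE1-negative cells and BLVRB, a biliverdin reductase, at 212 and 31.9 CPM, while the ferritin chain FTH1 was at 628 CPM in LYVE1-positive and 772 CPM in LYVE1-negative cells. MAF stood at 555 CPM in LYVE1-positive and 31.9 CPM in LYVE1-negative cells, and CSF1R at 2491 and 857 CPM. HPGDS, a prostaglandin D synthase counted among the mast cell markers, stood at 521 CPM in LYVE1-positive and 26.6 CPM in LYVE1-negative cells, while the mast cell genes CPA3, MS4A2, HDC and SLC18A2 were at 0 in all 181 macrophages. The remaining named genes on the higher side were ACP5, ABCA8, CD5L, RIN2 and MAMDC2, with log2 ratios from 4.56 to 5.48.

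On the LYVE1-negative side stood CD74, Mafa-DRA, lysozyme and genes shared with monocytes. Of 6 measured genes of MHC class II presentation 2 were lower and 1 higher in LYVE1-positive cells: CD86, a costimulatory ligand for T cells, stood at 285 CPM in LYVE1-positive and 133 CPM in LYVE1-negative cells. CD74 was at 9825 CPM in LYVE1-positive and 25405 CPM in LYVE1-negative cells, a log2 ratio of -1.37 (-1.45 to -1.30), and the class II chain Mafa-DRA at 3862 and 9111 CPM. Of 9 blood monocyte genes 4 were lower and 0 higher in LYVE1-positive cells: LYZ stood at 1255 CPM in LYVE1-positive and 2572 CPM in LYVE1-negative cells, and PLAC8 had 1 UMI in LYVE1-positive against 56 UMIs in 17 LYVE1-negative cells. Of 10 inflammatory genes 4 were lower and 0 higher. IL1B stood at 198 CPM in LYVE1-positive and 522 CPM in LYVE1-negative cells, and TNF at 67.6 and 234 CPM. FCGR3A, an Fc receptor of non-classical monocytes, stood at 111 CPM in LYVE1-positive and 474 CPM in LYVE1-negative cells. The 6 cells that met the monocyte rule were all LYVE1-negative, and without them 107 genes were lower and 166 higher. The counts of monocyte and inflammatory genes and the levels of IL1B and TNF given here include these 6 cells. The part of the 6 cells in these values was not tested. APOC1 stood at 227 CPM in LYVE1-positive and 1912 CPM in LYVE1-negative cells. Of 10 lipid genes 6 were lower and 3 higher. The further named genes on the lower side were G0S2, HES1, LTA4H, FGR, ID2 and MYL9, with log2 ratios from -3.49 to -2.68.

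Some values of the LYVE1-negative group rested on few cells. ACTA2, a smooth muscle actin, had 53 UMIs in LYVE1-positive and 332 UMIs in LYVE1-negative cells, 226 of them in 1 barcode, and with at least 10 marker UMIs required its log2 ratio turned to 0.38. Summed over the list, mural markers stood at 478 CPM in LYVE1-positive and 2481 CPM in LYVE1-negative cells. Fibroblast markers (343 and 719 CPM) and T and NK cell markers (57.9 and 154 CPM) were also higher in LYVE1-negative cells. Endothelial markers went the other way, at 826 CPM in LYVE1-positive and 415 CPM in LYVE1-negative cells. The part of all these markers in the other differences was not tested. APOD, a lipid carrier of fibroblasts, had 32 UMIs in LYVE1-positive cells and 207 in LYVE1-negative cells, 175 of them in 1 barcode. CHIT1, a chitinase of lipid-laden macrophages, had 0 UMIs in LYVE1-positive cells and 85 in 3 LYVE1-negative cells. GPNMB, a membrane glycoprotein of the same state, had 101 UMIs in 36 of 106 LYVE1-positive cells and 186 UMIs in 11 of 75 LYVE1-negative cells, of which 5 cells held 177. GPNMB therefore reached more LYVE1-positive cells and a higher sum in LYVE1-negative ones.

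The presence of LYVE1 alone did not divide the cells by MHC class II. Summed over CD74, Mafa-DRA, Mafa-DMA and Mafa-DMB it ran from 0 to 985 UMIs per 10000 with a median of 22.1 in LYVE1-positive cells, the lower quartile at 8.59 and the upper at 352. In LYVE1-negative cells it ran from 22.8 to 1026 with a median of 388. Few LYVE1-positive cells lay between: 11 were below 1 UMI per 10000, 23 between 1 and 10, 34 between 10 and 50, 2 between 50 and 100, 4 between 100 and 200, 9 between 200 and 400, and 23 at 400 or above. A limit of 100, set after these values were seen, put 36 LYVE1-positive cells on the high side and 70 on the low side. The same limit was met by 66 of the 75 LYVE1-negative cells. The level of LYVE1 went against MHC class II among LYVE1-positive cells. Its median was 18.5 UMIs per 10000 in those with high and 57.1 in those with low MHC class II. Median depth was 1589 UMIs in LYVE1-positive cells with high and 1993 UMIs in those with low MHC class II, and the mitochondrial share 12.4% and 11.9%. The marker sum of the selection rule had a median of 12.5 (lowest 5) in the cells with high and 51.5 (lowest 10) in those with low MHC class II.

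**Figure D4:**
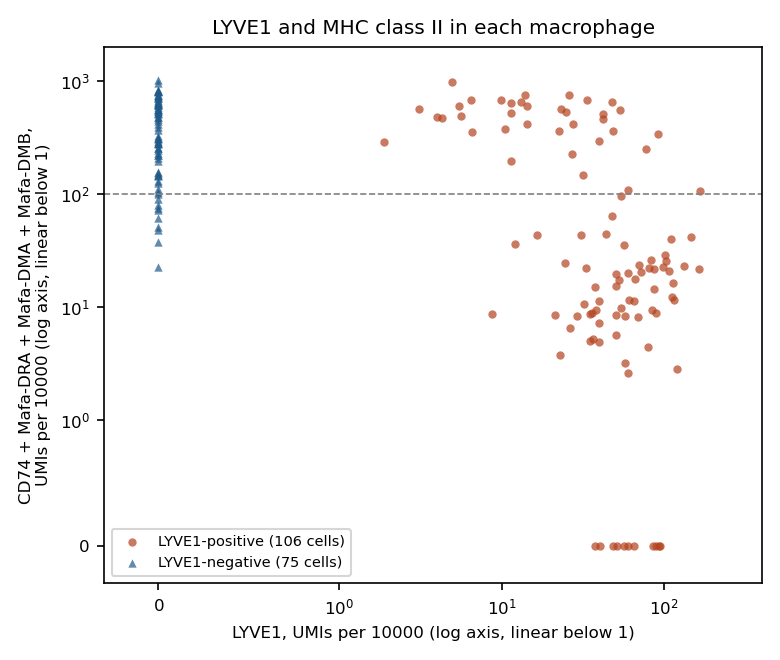
LYVE1 (horizontal axis) and the sum of 4 MHC class II genes (vertical axis) in each of the 181 macrophages, both in UMIs per 10000 on log axes that are linear below 1; the dashed line marks 100. LYVE1-positive cells (circles) form one cloud above the line, with 36 cells, and one below it, with 70; LYVE1-negative cells (triangles) lie mostly above.

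Of 580 genes measured outside those 4, 7.76% were at least 2-fold higher and 19.7% at least 2-fold lower in the cells with high MHC class II. All 9 measured scavenger and endocytic receptor genes were lower there, LYVE1 itself included, at 2258 CPM in the cells with high and 6233 CPM in those with low MHC class II. These groups were set on MHC class II in the same cells, so the counts are a description, and the part of the marker sum in the lower levels was not tested. ABCA8, a lipid transporter, had 2 UMIs in cells with high and 158 UMIs in 52 of 70 cells with low MHC class II, a log2 ratio of -5.16 (-8.22 to -3.29). CD209 had 5 UMIs in cells with high and 212 UMIs in 53 cells with low MHC class II. CLEC4G had 0 UMIs in cells with high and 95 UMIs in 37 cells with low MHC class II, at least 14.4-fold lower with high MHC class II. In these counts CD209 and CLEC4G were thus found almost wholly in the 70 LYVE1-positive cells with little MHC class II.

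CTSK stood at 247 CPM with high and 2548 CPM with low MHC class II, ACP5 at 92.8 and 1341 CPM, and the prostaglandin D synthase PTGDS at 61.9 and 1292 CPM. NRP1, a co-receptor for vascular growth factors, stood at 61.9 CPM with high and 667 CPM with low MHC class II. The complement protein C2 stood at 30.9 CPM with high and 337 CPM with low MHC class II. CCL13 was lower with high MHC class II, at 912 CPM against 4696 CPM with low, but 59 UMIs remained in 7 cells, where all LYVE1-negative cells together held 1. IGF1 stood at 186 CPM with high and 800.2 CPM with low MHC class II. C1QA stood at 1871 CPM with high and 5187 CPM with low MHC class II, and at 1432 CPM in LYVE1-negative cells. VSIG4 differed less, at 1191 CPM with high and 1481 CPM with low MHC class II, a log2 ratio of -0.31 (-0.71 to 0.07).

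Some genes higher with high MHC class II were also high in LYVE1-negative cells and in monocytes. CPVL, a carboxypeptidase of antigen-presenting cells, stood at 1268 CPM with high and 28.1 CPM with low MHC class II, at 1512 CPM in LYVE1-negative cells and at 1130.1 CPM in monocytes. GPR183, a receptor for oxysterols that guides dendritic cells, stood at 696 CPM with high and 42.1 CPM with low MHC class II, at 634 CPM in LYVE1-negative cells and at 1056 CPM in monocytes. CCL3, an inflammatory chemokine, stood at 4222 CPM with high and 316 CPM with low MHC class II, but 75 of its 273 UMIs on the high side lay in 1 cell; it was at 3417 CPM in monocytes. CXCL8 stood at 3557 CPM with high and 1032 CPM with low MHC class II. MARCKS stood at 789 CPM with high and 140.4 CPM with low MHC class II, and PSME1, a proteasome activator, at 1052 and 281 CPM. CCL8 stood at 711 CPM with high and 183 CPM with low MHC class II, and at 26.6 CPM in LYVE1-negative cells. It rested on few cells, with 46 UMIs in 6 of 36 cells with high (17 in 1 cell) and 26 UMIs in 7 of 70 cells with low MHC class II. G0S2 stood at 526 CPM with high and 133 CPM with low MHC class II, with 28 of its 34 UMIs on the high side in 1 cell, and its direction turned at a limit of 200 (log2 ratio -1.84). The remaining named genes were HCST, LGALS1, NR4A1 and A2M on the higher side and HTRA1, PSD3, NINJ1 and MGLL on the lower side. Summed dendritic cell markers stood at 325 CPM with high and 84.2 CPM with low MHC class II, and T and NK cell markers at 108 and 35.1 CPM. Endothelial markers stood at 773 CPM with high and 849 CPM with low MHC class II, mural markers at 371 and 526 CPM, and fibroblast markers at 263 and 379 CPM. The part of these markers in the differences was not tested.

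**Figure D5:**
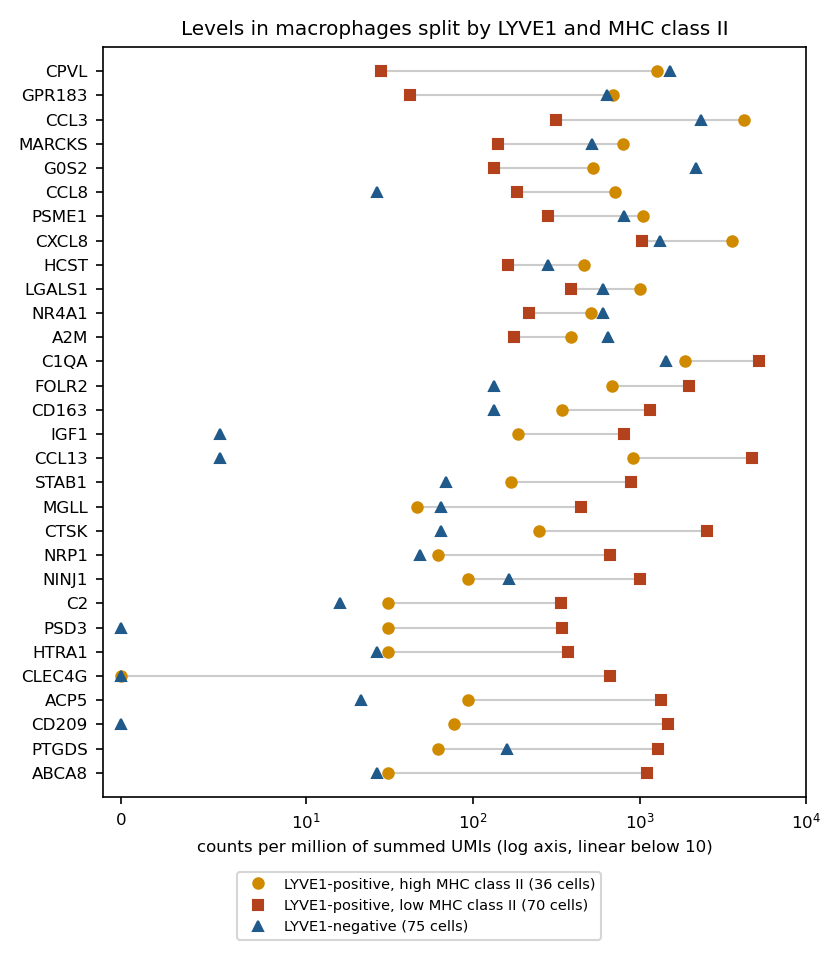
Level in CPM of summed UMIs (horizontal log axis, linear below 10) of 30 genes in LYVE1-positive macrophages with high MHC class II, LYVE1-positive macrophages with low MHC class II, and LYVE1-negative macrophages. CPVL and GPR183 of the high group lie beside the LYVE1-negative points, while CTSK, CD209 and ABCA8 stand apart in the low group.

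Within the LYVE1-negative cells APOC1 drew a further line, also chosen after its values were seen: 31 cells held 2 or more APOC1 UMIs, 4 held 1 and 40 held none. Median depth was 2126 UMIs in the 31 and 2392.5 UMIs in the 40. APOE stood at 6317 CPM in cells with APOC1 and 838 CPM in those without it, and TREM2, a lipid-sensing receptor, at 232 and 51.1 CPM. FCGR3A ran the other way, with 12.2 CPM in cells with APOC1 and 899.7 CPM in those without. PLAC8 stood at 73.2 CPM in cells with APOC1 and 511 CPM without, IL1B at 85.4 and 909.9 CPM, and G0S2 at 280.5 and 3967 CPM. LYZ was alike, at 2646 CPM in cells with APOC1 and 2464 CPM in those without, and C1QA too, at 1415 and 1462 CPM. MRC1, FOLR2 and CD163 were found in 11, 12 and 10 of the 31 cells, but in 6, 4 and 5 of the 40. F13A1 went the other way, in 7 of the 31 and 13 of the 40. FCGR3A was found in 1 of the 31 and 23 of the 40. Whether the 40 were resident macrophages or cells closer to monocytes was not tested. FCN1, a monocyte rule gene, had no UMI in cells with APOC1. It had 19 UMIs in 6 of the 40 cells without APOC1, at 194 CPM. The 6 cells that met both the macrophage and the monocyte rule held no LYVE1 or APOC1 UMI, so all were among these 40. G0S2 had 464 UMIs in all macrophages and 210 UMIs in the 175 macrophages left without these 6 cells. The 6 cells thus held more G0S2 UMIs than those 175 together. The part of the 6 cells in the other differences of this split was not tested. The barcode rich in smooth muscle genes was among the cells with APOC1, where ACTA2 stood at 3439 CPM against 501 CPM without APOC1.

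Over all 181 macrophages thinned to 500 UMIs, the spread of a gene between cells was measured by its Fano factor, the variance over the mean, which is near 1 for molecules scattered at random. The median over 717 genes with a mean of at least 0.1 UMI was 1.17, and 1 in 20 lay above 2.40. The widest spread was that of the immunoglobulin row of 1 barcode, and 5 further rows without a gene symbol lay in the range given here, the widest of them at 19.5 with UMIs in 68 cells. The genes with a symbol and the widest spread were APOD (12.4), CD74 (10.5), ACTA2 (6.57), CST3 (6.16), CCL13 (5.67), GPNMB (5.65), CCL3 (5.63), G0S2 (5.09), CXCL10 (5.03), Mafa-DRA (4.98), APOC1 (4.10), CCL2 (3.64), CXCL8 (3.57), FTL (3.10) and SEPP1 (3.04). Of these CD74, CST3 and Mafa-DRA were found in most cells after thinning, in 129, 166 and 106 of 181, while CXCL10 was found in 6 and APOD in 14. CST3, a protease inhibitor, ran from 39.1 to 621 UMIs per 10000 with a median of 265 in LYVE1-positive cells and from 0 to 778 with a median of 84.5 in LYVE1-negative cells.

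The same marker sum was applied to the nuclei at a mitochondrial limit of 10%, with 7 of the 8 genes, C1QB having no symbol there. It chose 432 of 16473 EOM nuclei, 2.62% (2.38 to 2.88%), and 326 of 12391 QFM nuclei, 2.63%. Levels for this comparison were taken over the 13945 gene symbols that both tables share, so the macrophage values differ from those above. Of the rule genes, F13A1 was found in 99.1% and MRC1 in 84.3% of the chosen EOM nuclei, but FOLR2 in 16.9% and C1QA in 8.80%. C1QA stood at 13.3 CPM in the chosen EOM nuclei and 212 CPM in the QFM nuclei, and C1QC at 107 and 1714 CPM. The chosen EOM and QFM nuclei were thus not alike in these genes, and the part of this in other levels was not tested. The chosen EOM nuclei carried much muscle RNA: MYH13, the myosin of eye muscle fibres, had at least 1 UMI in 95.4% of them and stood at 7338 CPM, against 7.18 CPM in the macrophage cells. The part of this muscle RNA in the other differences was not tested. Of 7452 genes 19.6% were at least 2-fold higher in the cells and 53.2% at least 2-fold lower. Scaled to the median ratio, whose log2 value was -1.19, 2484 genes were higher and 2340 lower.

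Of the macrophage genes, some were high in cells and nearly absent from nuclei while others were level. CCL2 had 527 UMIs in the cells and 1 in the EOM nuclei, and CXCL8 had 626 UMIs in the cells and 0 in the EOM nuclei, at least 2375-fold higher. Of 12 measured immediate-early and heat-shock genes 11 were higher in the cells and 0 lower: FOS stood at 7272 CPM in the cells and 4.42 CPM in the EOM nuclei. CCL13 stood at 2618 CPM in the cells and 15.5 CPM in the EOM nuclei, with 63.1 CPM in the QFM nuclei. IGF1 was level, at 456 CPM in the cells and 467 CPM in the EOM nuclei, a log2 ratio of -0.03 (-0.31 to 0.23). LYVE1 stood at 3713 CPM in the cells, 142 CPM in the EOM nuclei and 1259 CPM in the QFM nuclei. STAB1 was at 539 CPM in the cells, 313 CPM in the EOM nuclei and 500.5 CPM in the QFM nuclei. CD209 was found in both, at 779 CPM in the cells and 52.7 CPM in the EOM nuclei. The named genes at the other end were MYH13, ERBB4, KCNMA1, MYBPC1 and CTNNA3, each with at most 3 UMIs in the 181 cells, and at the upper end CCL2, CXCL8, the proton pump chain ATP6V0C, ACP5 and the actin-binding TMSB4X.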

How the data were processed

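Per the labels, 1 whole-cell library of extraocular muscle and 1 library of nuclei each from extraocular and quadriceps femoris muscle were sequenced on an Illumina NovaSeq instrument. The deposited tables hold raw UMI counts per gene and barcode. Cell Ranger 7.2.0 and Seurat 5.2.1 are listed per the submitters' processing notes. The genome build was not given in the sources used here, nor were filters; every deposited cell barcode has at least 500 UMIs. Cell barcodes are 27 bases long and nuclei barcodes 16.

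From these counts, UMIs were summed over the barcodes of a group and divided by the group's total (CPM). Ratios have exact conditional binomial intervals at 95%, and shares have Clopper-Pearson intervals; both cover counting error only. A gene was measured with at least 50 UMIs over both sums and called at 2-fold; rule genes were left out of counts (in the LYVE1 comparison only LYVE1 was). Against a sum of 0, a bound took 3 UMIs for the group. Rows given by NCBI gene identifier were named from RefSeq (723 rows, CD209 among them, and 6 by a Mafa synonym). Members and the 35 gene lists (459 of 500 names found) were chosen with earlier results of these data known; the splits by MHC class II and APOC1 were chosen after their values were seen. Named genes were the 20 highest against other cells (at least 300 CPM), 15 each way against monocytes and 12 each way by LYVE1 and by MHC class II (at least 200 CPM), 5 each way against nuclei, and the 15 largest Fano factors; from each list, up to 8 by level and 4 by ratio could be named. Scrublet ran with an expected rate of 6%. Python 3.11.15, numpy 2.4.6, scipy 1.17.1, pandas 2.3.3 and scanpy 1.11.5 were used, and the ratio was tested on simulated data. No sequences are printed.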

Additional observations from a re-analysis of the deposited data

Results flagged for a closer look

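Beyond the mitochondrial limit, 18 of the 1663 barcodes above 20% mitochondrial UMIs also met the marker sum. These barcodes entered no comparison; their median depth was 1312 UMIs and their median mitochondrial share 23.9%, with a range from 20.3 to 32.8%.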

How the results depend on the processing

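The macrophage share of kept cells, 2.47% as reported, was 1.38% at a mitochondrial limit of 10%, and 3.09% and 1.72% with marker sums of at least 3 and 10. It was 3.70% with at least 1000 UMIs per barcode and 1.59% without the cells that held 3 or more UMIs of other cell type markers. The LYVE1-positive share, 58.6%, was 71.0% at the 10% limit, 50.4% and 75.4% at marker sums of 3 and 10, and 45.9% after thinning. The 10% limit left 31 macrophages. At it, 692 genes were higher and 1797 lower against other cells, 62 and 131 against monocytes, and 37 and 38 by LYVE1. A marker sum of 10 gave 59 genes lower by LYVE1. Without cells holding other markers, 1685 genes were higher against other cells, 154 against monocytes and 95 by LYVE1, while 68 were lower by LYVE1 and 64 by MHC class II. Median ratio scaling gave 1622 genes higher against other cells, and 2484 higher and 2340 lower against nuclei. Thinning, which leaves fewer UMIs, gave 1809 lower against other cells, 53 higher and 75 lower against monocytes, 42 and 22 by LYVE1, and 18 and 23 by MHC class II. With at least 20 UMIs, 2208 genes were higher against other cells, 805 higher and 543 lower against monocytes, and 455 and 355 by LYVE1; with at least 200, the counts were 498 and 1950, 60 and 82, and 41 and 23. Of 2031 alternative values 1703 stayed within set limits of the main value, 323 moved beyond them and 5 reversed. A reversal was counted only where the main log2 value was at least 1 in size, so smaller values could change sign uncounted. Reversed were the chemokine median against monocytes (-0.22 at the 10% limit, -1.07 thinned, -0.94 with at least 200 UMIs), and 2 genes. These were ACTA2 by LYVE1 (0.38 at a marker sum of 10) and G0S2 by MHC class II (-1.84 at a limit of 200). The cause was not tested. The alternatives for the MHC class II split and for the barcode with plasma cell transcripts were chosen after seeing the data. No paired analysis was possible because each group has 1 library, and for the same reason no replicate could be left out.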
